A study of Mus musculus with 120 samples.

Results

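Single group 2 innate lymphoid cells (ILC2s) of the mouse were compared at the onset of IL-13 secretion and before stimulation. The onset group held the 11 cells whose label gave the transition state at 30 min with IL-13 as the index, and the other group held the 5 cells labelled as pre-stimulation with the same index. All 16 cells passed the rule of at least 10000 reads in genes, as did 117 of the 120 cells of the whole series. The cells came from mesenteric fat pooled from 20 wild-type C57BL/6 mice, were sorted as lineage-negative c-Kit+ Sca-1+ cells and, per the study's methods, were kept in culture with IL-2 for months before use. The methods state that the donors were usually retired female breeders, with no age given. The cells at 30 min had been put into medium with IL-2 and IL-33, watched one by one for secreted IL-13, and taken out about 30 min after secretion was first seen; the pre-stimulation cells carried no treatment label. The time since addition of IL-33 therefore differed from cell to cell and is not in the labels.

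ILC2s are tissue-resident lymphocytes that lack antigen receptors and answer to alarmins, cytokines released by damaged or irritated tissue. IL-33, the best studied of them, binds the receptor ST2 (gene Il1rl1) and signals through MyD88 and IRAK kinases to NF-kB and to MAP kinases, which in turn reach AP-1 factors. NF-kB dimers are held in the cytoplasm by IkB proteins, and the genes for IkB and for other brakes on the pathway are themselves classical NF-kB targets, so that the pathway limits itself within hours. The output of ILC2s is a set of type 2 cytokines, IL-5 and IL-13 above all, which recruit eosinophils, drive mucus production and, in fat, take part in keeping the tissue lean.

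The libraries counted the 3′ ends of messenger RNAs, without molecular identifiers, so that reads from 1 molecule can be counted more than once. Each cell held 164740 to 361239 reads in genes, 2676904 over the 11 cells at 30 min and 964383 over the 5 pre-stimulation cells. Levels are given as CPM, the reads of a gene per 1000000 reads in genes, over the summed reads of a group or in 1 cell. Which animal or culture a cell came from is not labelled, so each group counts as 1 sample. No test between the groups was possible, no p-value is given, and every interval is the exact 95% interval of counting error alone, which leaves out the difference between cells. The pre-stimulation cells carried 1 date in their titles, shared by 5 of the cells at 30 min (the first date), and the other 6 cells at 30 min carried a second. Indexed libraries were pooled by 5 or 6 before tagmentation, and the labels do not say which cells shared a pool. The sample number in the titles is shared by all cells of a state, so a pool made within a state cannot be told apart from the state.

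Markers of ILC2s were present in both groups. Of 18 ILC2 markers, 16 reached 50 CPM as the mean of both groups, and their summed level ranged from 8095 to 16039 CPM in the cells at 30 min and from 9552 to 21318 CPM before stimulation. All 8 markers of NK cells and ILC1s and all 12 myeloid markers had no read in any of the 16 cells, where the limit of 3 reads set here for a count of 0 equals 1.12 CPM at 30 min and 3.11 CPM before stimulation per gene. Of 15 T cell markers, 8 had no read in either group, and Cd3g, a subunit of the T cell receptor complex, Lat and Trbc2 reached a mean of 50 CPM, with a summed level of the list from 0 to 1517 CPM at 30 min and from 69.5 to 5014 CPM before stimulation. One pre-stimulation cell, replicate 1, held 38703 CPM in genes of DNA replication and mitosis against 698 to 2109 CPM in the other 4. It weighs on every ratio, so values without it are given for named genes and lists whose calls it changes. No pair of the 16 cells was a repeated library (Pearson r of log2(CPM + 1) between cells 0.222 to 0.443 over the genes measured).

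At 30 min, 8 of 9 measured cytokine genes, all 5 genes of NF-kB subunits, 8 of 11 measured genes of the IkB family and NF-kB feedback, Gadd45b, Rrad and Sqstm1 were higher than before stimulation, while all 81 measured ribosomal protein genes and 13 of 16 measured ILC2 markers lay within 4-fold, as did 1789 of all genes measured. Of 2654 genes measured (50 CPM or more as the mean of both groups), 413 (15.6%) were at least 4-fold higher and 452 (17%) at least 4-fold lower, and the median log2 ratio was -0.23. For calls, list medians, plots and ratios given alone, a group with fewer than 3 reads of a gene was set to 3 reads. A ratio against 0 reads is therefore given as at least the value with this floor. That value is not a counting limit: the log2 ratio of Rrad was 9.87 with the floor, with a lower counting limit of 9.57. Where a group had 1 or 2 reads, the ratio of the reads as counted is given first with its counting limits, and the value with this floor follows it. Only values with the floor can be set against each other. With so few cells, many such ratios rest on 1 cell. A gene with no read in 1 group reaches the minimum of 50 CPM only at a level past 4-fold. Its call is therefore fixed by the filter, and list counts and medians depend on the minimum. Counting only genes past 4-fold on leaving out any 1 cell, in both dates and on averaging CPM over cells left 284 (10.7%) higher and 164 (6.18%) lower. These are called steady below. Scaling by TMM factors raised all ratios by 0.25 on the log2 scale, which gave 470 genes higher and 402 lower, and the values here are without it.

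**Figure D1:**
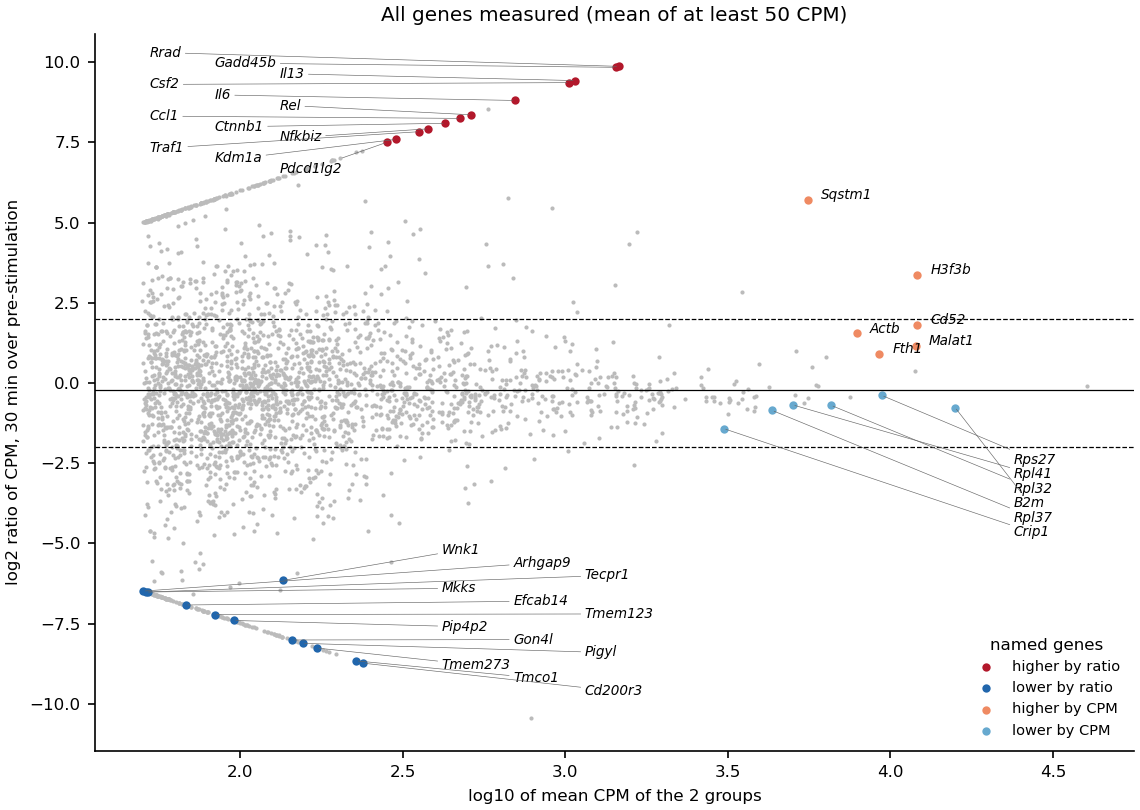
Log2 ratio of CPM (30 min over pre-stimulation) against the log10 of the mean CPM of the 2 groups for the 2654 genes measured, with genes named by rule in colour, dashed lines at 4-fold and the solid line at the median of -0.23. The upper and lower slanted edges are genes with fewer than 3 reads in one group, whose ratio is set by the 3-read floor. Rrad, Gadd45b, Il13 and Csf2 stand at the top end of the upper edge, and Sqstm1 and H3f3b stand apart among the abundant genes.

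In only 19 genes (0.716% of those measured) was every cell at 30 min above every pre-stimulation cell, and in 1 gene (0.0377%) was every cell below. Il13, Csf2, Gadd45b, Rrad, Rel, Nfkb2, Nfkbia, Nfkbiz, Traf1, Batf, Junb, Sqstm1 and Ctnnb1 were among the 19. The other 6 are named after their values were seen: Furin, which encodes a proprotein convertase (log2 ratio 7.25), Adam8, a cell-surface metalloprotease (at least 6.94), Orai1, the pore of the store-operated calcium channel (at least 6.31), Gramd1a, a sterol transporter at membrane contacts (at least 6.54), Eif5a, a translation factor (1.93), and the annotated locus Gm49339 (2.22). The 1 gene below was Tmem258, a subunit of the oligosaccharyltransferase complex (-1.87).

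Cytokine genes were among those with the largest ratios. Of 27 cytokine and chemokine genes on the list, 9 were measured, and 8 of these were at least 4-fold higher and 1 lower, with a median log2 ratio of 6.46. Of the other 18, 12 had no read in either group, among them Il3, Il10 and Ifng. Il9, another cytokine of ILC2s, had 1 read in 1 cell at 30 min. The list summed to 9738 CPM at 30 min and 468 CPM before stimulation. Over its members at a mean of 10 CPM or more, the median log2 ratio was 4.81. Il13, Il4, Il5 and Csf2 lie close together on chromosome 11 in the type 2 cytokine region (GRCm38: Il4 at chr11:53602982-53618669, minus strand; Il13 at chr11:53631324-53634702, minus strand; Il5 at chr11:53720794-53725106, plus strand; Csf2 at chr11:54247271-54249667, minus strand).

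Il13, the index cytokine, checks the labels. It was at 0, 0, 0, 5.93 and 0 CPM in the 5 pre-stimulation cells and 150.4 to 5840.3 CPM in the 11 cells at 30 min (median 1364). Every cell at 30 min was above every pre-stimulation cell, in which a single read was counted. The log2 ratio over summed reads was 11.01 as counted (counting limits 8.54 and 16.32) and 9.43 with the floor. Csf2, which encodes GM-CSF, a growth factor of eosinophils and macrophages, was at 4.06, 0, 0, 0 and 0 CPM in the 5 pre-stimulation cells and 233 to 6457 CPM in the 11 cells at 30 min (median 1251). Its groups did not overlap either, and its log2 ratio was 10.95 as counted (counting limits 8.47 and 16.25) and 9.36 with the floor. Il5, the eosinophil growth factor, was at 93.4, 0, 0, 0 and 0 CPM in the 5 pre-stimulation cells and 4.74 to 4156 CPM in the 11 cells at 30 min (median 949). It was read in all 11 cells at 30 min, but 3 of these were under 93.4 CPM, the level of the pre-stimulation replicate 1, so the groups overlapped. Its log2 ratio was 5.78 (counting limits 5.19 and 6.44), and without that pre-stimulation cell, which left no read, it was at least 8.29.

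Il6, a cytokine of the acute phase response, was at 0 CPM in each of the 5 pre-stimulation cells and 0 to 6901 CPM in the 11 cells at 30 min (median 529). It was read in 9 of the 11 cells, and the group value was at least 449-fold higher. In the 5 cells of the first date the log2 ratio was at least 9.87, and in the 6 cells of the second it was at least 7.33. Il4, the cytokine of the Th2 programme, was at 0 CPM in each of the 5 pre-stimulation cells and 0 to 532 CPM in the 11 cells at 30 min (median 50.2). In 3 cells at 30 min there was no read, and the group was at least 53.6-fold higher. Ccl1, a chemokine for CCR8-bearing cells, was at 0, 0, 0, 0 and 4.63 CPM in the 5 pre-stimulation cells and 0 to 6557 CPM in the 11 cells at 30 min (median 50.2). Its log2 ratio was 9.83 as counted (counting limits 7.36 and 15.14) and 8.25 with the floor, and 2 cells, 1 from each date, held most of its reads.

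Calca, which encodes the neuropeptide CGRP and its relative calcitonin, was at 0, 741, 0, 0 and 0 CPM in the 5 pre-stimulation cells and 2.77 to 3569 CPM in the 11 cells at 30 min (median 1326). A single pre-stimulation cell, replicate 2, held all reads of its group, and the log2 ratio was 3.27 (counting limits 3.01 and 3.54), and at least 8.37 without that cell. Cxcl2, a neutrophil chemokine, was read in 2 cells at 30 min and in no pre-stimulation cell, and replicate 4, with 3453 CPM, held 99.9% of its reads. Il2, the growth factor of lymphocytes that was also in the medium, went the other way: it was at 0, 1037, 0, 29.6 and 9.26 CPM in the 5 pre-stimulation cells and at 0 CPM in each of the 11 cells at 30 min. The group was at least 168-fold lower, with the pre-stimulation replicate 2 holding 96.2% of the reads. Without it the log2 ratio with the floor was -2.97.

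**Figure D2:**
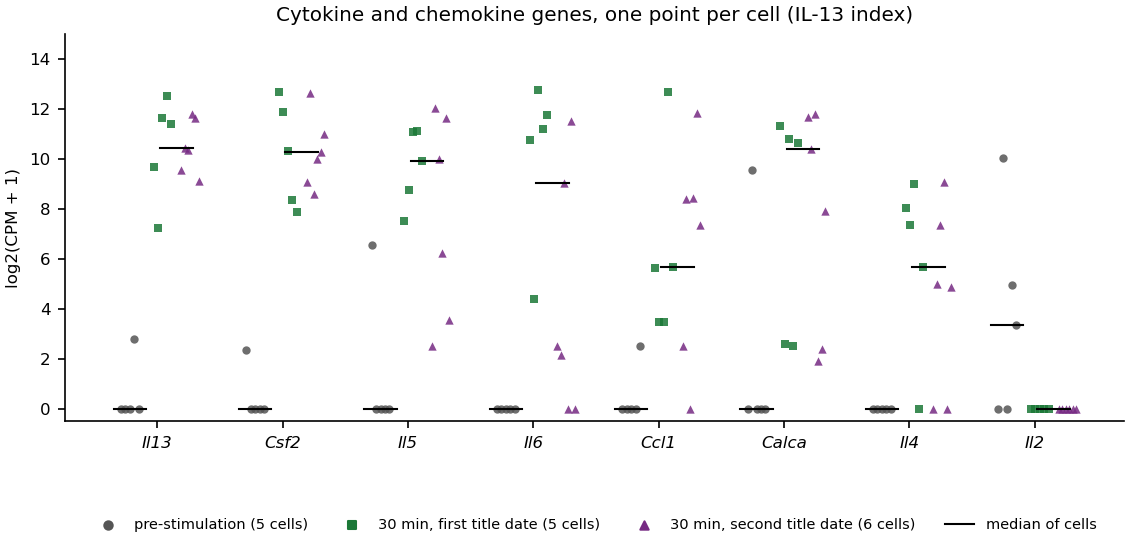
Level of 8 cytokine and chemokine genes in each cell as log2(CPM + 1), with 5 pre-stimulation cells as circles, the cells at 30 min as squares (first date) or triangles (second date), and bars at the medians. Il13 and Csf2 separate the groups completely, Il6, Ccl1 and Il4 have cells at 0 and cells at 531 CPM or more among those at 30 min, and Il2 is at 0 in all of them.

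The cells at 30 min differed in which cytokine genes they held. Each held reads of 6 to 8 of the 8 cytokine and chemokine genes that were higher. The cell with the highest Il13 (replicate 4, 5840.3 CPM) had 326 CPM of Csf2, 6557 CPM of Ccl1 and no read of Il4. The cell with the highest Csf2 (replicate 1, 6457 CPM) had 822 CPM of Il13 and 48.0 CPM of Ccl1. Replicate 7, with 4156 CPM of Il5, had 6342 CPM of Csf2 and 3.45 CPM of Il6, and replicate 3 had the highest Il6 with 6901 CPM. Replicate 6 held 753 CPM of Il13 and 531 CPM of Csf2 but 4.74 CPM of each of Il5, Il6 and Ccl1, which at its depth is 1 read.

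The NF-kB family was higher as a whole. All 5 subunit genes were measured and at least 4-fold higher, with a median log2 ratio of 6.77, and all 5 were steady. With the pre-stimulation cells of the IL-5 index added to the 5 of the IL-13 index, the median was 3.08. Nfkb2, the precursor of the p52 subunit, was at 0 CPM in each of the 5 pre-stimulation cells and 65.6 to 1240.4 CPM in the 11 cells at 30 min (median 382), at least 129.9-fold higher. Rel, which encodes c-Rel, was at 4.06, 0, 0, 0 and 0 CPM in the 5 pre-stimulation cells and 12.8 to 2684 CPM in the 11 cells at 30 min (median 848). Both groups of values lay fully apart. The log2 ratio of Rel was 9.95 as counted (counting limits 7.47 and 15.25) and 8.36 with the floor. Relb, the partner of p52, was at 0 CPM in each of the 5 pre-stimulation cells and 0 to 1279 CPM in the 11 cells at 30 min (median 196), with no read in 2 of the 11 cells, and the group was at least 109-fold higher. Rela, the p65 subunit, was read in 7 of the 11 cells and in no pre-stimulation cell, at 115 CPM over the group, at least 36.9-fold higher. Nfkb1, the precursor of p50, was already read in 4 of 5 pre-stimulation cells: it was at 239.7, 59.2, 219, 0 and 4.63 CPM in the 5 pre-stimulation cells and 66 to 1629.6 CPM in the 11 cells at 30 min (median 1246). Its groups overlapped and its log2 ratio was 3.00 (counting limits 2.72 and 3.30).

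Genes of the IkB family and of NF-kB feedback were higher alongside. Of 19 genes, 11 were measured, of which 8 were at least 4-fold higher, none lower and 3 within, with a median log2 ratio of 5.91; all 8 were steady. With the pre-stimulation cells of both indexes the median was 4.00, and over the members at a mean of 10 CPM or more it was 4.43. Of the 8 not measured, only Tnip3 had no read at all. Nfkbia, which encodes IkBα, the first brake on the pathway, was at 0, 0, 862, 0 and 4.63 CPM in the 5 pre-stimulation cells and 1052 to 4521 CPM in the 11 cells at 30 min (median 3103). No value overlapped, although the pre-stimulation replicate 3 held 862 CPM. The log2 ratio was 4.34 (counting limits 4.10 and 4.58), and 9.64 against the 3-read floor without that cell. Nfkbiz, the nuclear IkBζ that helps turn on a second set of genes, was at 0, 0, 0, 0 and 4.63 CPM in the 5 pre-stimulation cells and 352 to 1238 CPM in the 11 cells at 30 min (median 807), with a log2 ratio of 9.51 as counted (counting limits 7.03 and 14.81) and 7.92 with the floor. Nfkbiz, Nfkbia and Gadd45b varied little among the cells at 30 min. The SD of log2(CPM + 1) over these cells was 0.62 for Nfkbiz, 0.67 for Nfkbia and 0.71 for Gadd45b, against 1.52 for Il13 and 5.10 for Il6.

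Traf1, an adaptor of TNF receptors, was at 0 CPM in each of the 5 pre-stimulation cells and 36.5 to 1590.2 CPM in the 11 cells at 30 min (median 734), at least 228-fold higher and without overlap. Tnfaip3, which encodes the ubiquitin-editing enzyme A20, was at 0 CPM in each of the 5 pre-stimulation cells and 0 to 491 CPM in the 11 cells at 30 min (median 144), at least 60.2-fold higher, with no read in 2 cells at 30 min. Its partner Tnip1 was at least 70.9-fold higher (220.4 CPM over the 30 min cells, none before), Bcl3, an IkB protein of the nucleus, at least 67.7-fold (211 CPM over the 30 min cells, none before), and Nfkbib, IkBβ, at least 65.1-fold (202 CPM over the 30 min cells, none before). Birc3, which encodes cIAP2, had a log2 ratio of 4.73 (counting limits 3.84 and 5.79). Nfkbid (-0.75), Cflar (1.29) and Tnfaip8 (1.55) lay within 4-fold.

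**Figure D3:**
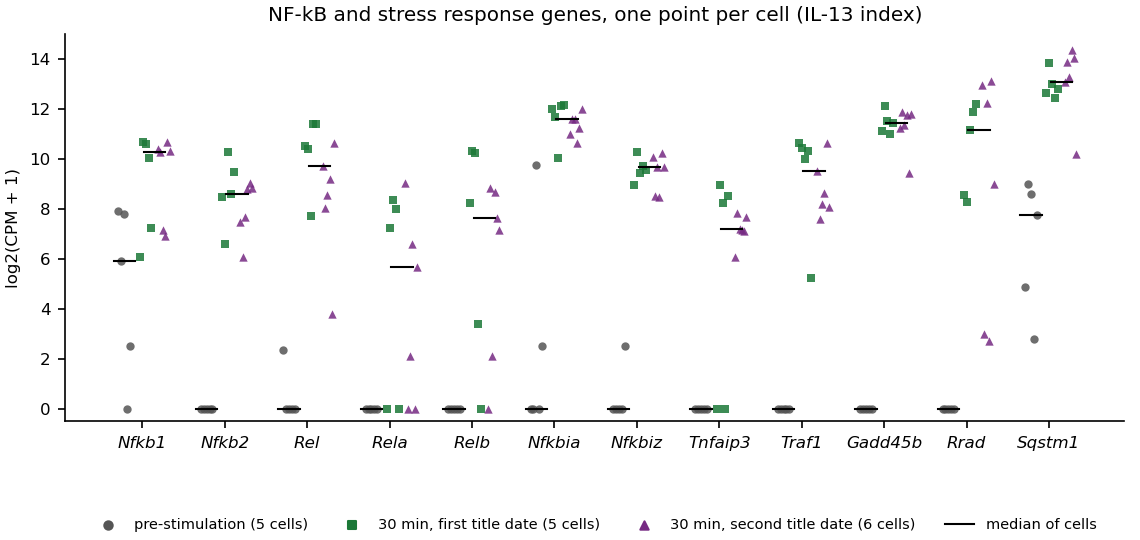
Level of 12 NF-kB and stress response genes in each cell as log2(CPM + 1), with circles for the 5 pre-stimulation cells, squares and triangles for the cells at 30 min of the first and second date, and bars at the medians. Nfkb2, Rel, Nfkbia, Nfkbiz, Traf1, Gadd45b, Rrad and Sqstm1 separate the groups, while Rela and Relb have cells at 0 in both.

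The windows around the start sites of these genes were searched for the letters that NF-kB binds. In RefSeq's table of 300-base windows (250 bases before to 50 after a start site, GRCm38.p6), a match to the kB consensus on either strand, with overlapping matches counted once, was found in 4.51% of 32851 windows. By gene, it was present for 6.03% of the 2107 measured genes with a window, 12.2% of the 238 steady higher genes and 6.77% of the 133 steady lower genes. The AP-1 motif TGANTCA, which reads the same on both strands, was present for 5.93%, 5.88% and 3.01% of them. Of the 13 genes of the subunit and IkB lists that were at least 4-fold higher, 10 had a window, and 6 of these held the kB consensus. Nfkb1, Nfkbiz and Relb had no window in the table. Over all 24 genes of these lists, higher or not, 20 had a window and 10 of these (50%) held the kB consensus. Of the 8 cytokine and chemokine genes that were higher, Il6 and Cxcl2 held it, and the windows of Il13, Il5, Il4, Csf2, Ccl1 and Calca did not. A match is a description of letters and not of binding. The windows of an IkB gene, of 2 subunit genes, of a feedback gene and of Il6 follow with the kB matches in capitals, since these are the sets of genes that were higher together.
Nfkbia, chr12:55492598-55492897, minus strand: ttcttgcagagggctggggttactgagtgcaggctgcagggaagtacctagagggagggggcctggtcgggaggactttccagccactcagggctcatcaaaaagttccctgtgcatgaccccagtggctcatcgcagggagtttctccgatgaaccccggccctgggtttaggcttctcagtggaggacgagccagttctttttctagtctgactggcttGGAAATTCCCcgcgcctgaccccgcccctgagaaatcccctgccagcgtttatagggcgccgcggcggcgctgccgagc
Rel, chr11:23770920-23771219, minus strand: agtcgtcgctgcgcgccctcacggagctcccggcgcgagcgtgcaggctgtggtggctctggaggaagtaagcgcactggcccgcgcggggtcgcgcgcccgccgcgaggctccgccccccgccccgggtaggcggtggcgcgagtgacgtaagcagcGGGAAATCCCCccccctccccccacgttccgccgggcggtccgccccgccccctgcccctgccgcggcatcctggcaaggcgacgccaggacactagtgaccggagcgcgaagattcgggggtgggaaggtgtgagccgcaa
Nfkb2, chr19:46304487-46304786, plus strand: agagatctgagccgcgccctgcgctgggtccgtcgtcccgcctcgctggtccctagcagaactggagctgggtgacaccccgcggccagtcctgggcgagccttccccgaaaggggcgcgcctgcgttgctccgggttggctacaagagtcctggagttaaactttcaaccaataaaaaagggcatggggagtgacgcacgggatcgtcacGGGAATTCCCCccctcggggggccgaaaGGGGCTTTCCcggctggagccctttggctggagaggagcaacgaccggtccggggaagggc
Tnip1, chr11:54962891-54963190, minus strand: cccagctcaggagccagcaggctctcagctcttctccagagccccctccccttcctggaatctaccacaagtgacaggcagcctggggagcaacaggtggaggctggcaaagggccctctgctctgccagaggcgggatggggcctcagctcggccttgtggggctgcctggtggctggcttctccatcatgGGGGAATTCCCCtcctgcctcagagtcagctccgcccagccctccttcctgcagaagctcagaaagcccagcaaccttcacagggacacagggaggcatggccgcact
Il6, chr5:30012864-30013163, plus strand: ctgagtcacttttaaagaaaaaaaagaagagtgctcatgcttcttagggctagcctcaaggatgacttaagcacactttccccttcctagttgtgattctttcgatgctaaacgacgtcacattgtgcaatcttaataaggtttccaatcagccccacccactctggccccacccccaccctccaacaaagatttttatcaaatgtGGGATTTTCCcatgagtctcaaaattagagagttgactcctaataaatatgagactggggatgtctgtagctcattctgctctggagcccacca

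The matches began 29 bases before the start site in Nfkbia, 92 in Rel, 39 and 11 in the most upstream of the 3 windows of Nfkb2, 58 in Tnip1 and 44 in Il6.

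Immediate early genes, which are switched on by kinase signals without new protein, were higher in part. Of 13 AP-1 family genes, 3 were measured and all 3 were at least 4-fold higher. The median log2 ratio was 4.66, and 3.75 over the members at a mean of 10 CPM or more. Batf, a partner of Jun proteins that shapes type 2 cytokine expression, was at 244, 0, 0, 0 and 269 CPM in the 5 pre-stimulation cells and 654 to 6335 CPM in the 11 cells at 30 min (median 2673), with a log2 ratio of 4.71 (counting limits 4.45 and 4.98). Junb was at 0, 47.4, 103, 0 and 0 CPM in the 5 pre-stimulation cells and 109 to 1605 CPM in the 11 cells at 30 min (median 684), with a log2 ratio of 4.66 (counting limits 4.09 and 5.29). Both were without overlap between groups. Jund was the weakest of the 3, with a log2 ratio of 2.27 (counting limits 1.74 and 2.84), or 1.94, under 4-fold, without pre-stimulation replicate 1. Fos, Fosb, Fosl1 and Batf3 had no read in either group.

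Among 25 Egr, Nr4a and other immediate early genes, 10 were measured, of which 5 were at least 4-fold higher and none lower, with a median log2 ratio of 2.22. Over the members at a mean of 10 CPM or more, the median was 3.21. Egr2, a zinc finger factor induced by antigen and cytokine signals, was at 0 CPM in each of the 5 pre-stimulation cells and 0 to 506 CPM in the 11 cells at 30 min (median 221), at least 70.7-fold higher. Nr4a1, an orphan nuclear receptor, was at least 40-fold higher, with reads in 10 of 11 cells (124 CPM over the 30 min cells) and none before stimulation. Ier5 had a log2 ratio of 4.59, Cd69, an early surface marker of activated lymphocytes, 3.96, and Myc, the growth regulator, 4.08 (counting limits 3.45 and 4.80), with reads in 7 of the 11 cells. Klf6 (-1.33), Rgs2 (-0.45), Zfp36l2 (-0.38), Zfp36l1 (0.44) and Ier2 (0.48) lay within 4-fold. Ier2 differed between dates, with 1.84 in the first and -3.23 in the second. Of the genes not measured, Egr3, Nr4a2 and Zfp36 had no read, and Nr4a3 and Btg2 had reads only at 30 min (96 and 194).

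Rrad and Gadd45b ranked first among the rises under the rule for named genes, which takes the smallest ratio on leaving out any 1 cell. Gadd45b encodes a stress sensor that acts on MAP kinase signals, and it was at 0 CPM in each of the 5 pre-stimulation cells and 689 to 4417 CPM in the 11 cells at 30 min (median 2774). Without a read before stimulation it was at least 918-fold higher, with a log2 ratio of at least 9.85 in the first date and 9.84 for the second. Rrad, a small GTPase best known as an inhibitor of calcium channels, was at 0 CPM in each of the 5 pre-stimulation cells and 5.54 to 8873 CPM in the 11 cells at 30 min (median 2277), at least 937-fold higher. In contrast to Gadd45b it spread widely: the SD of log2(CPM + 1) among the cells at 30 min was 3.74, against 0.71 for Gadd45b.

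Of 20 genes of the Gadd45 family, Rrad and stress response list, 10 were measured, with 7 higher, 1 lower and a median log2 ratio of 3.92. The median was 2.63 with the pre-stimulation cells of both indexes and 3.30 over the members at a mean of 10 CPM or more. Of the 7 higher, 5 were steady. Sqstm1, the autophagy receptor p62, which also brings signalling proteins of the NF-kB and NRF2 pathways together, was at 28.4, 504, 382, 5.93 and 213 CPM in the 5 pre-stimulation cells and 1171 to 20820 CPM in the 11 cells at 30 min (median 8671). Every cell at 30 min was above every cell before, and the group was 52.1-fold higher, a log2 ratio of 5.70 (counting limits 5.50 and 5.91). Cdkn1a, the cell cycle inhibitor p21, was at 73.1, 0, 0, 0 and 0 CPM in the 5 pre-stimulation cells and 0 to 1569 CPM in the 11 cells at 30 min (median 573), with a log2 ratio of 5.07 (counting limits 4.40 and 5.82). A single cell at 30 min had no read of it. Of the NRF2 targets, which defend against oxidants, Txnrd1 had a log2 ratio of 4.30 and Srxn1 3.54 (first date 1.19, second date 4.10), whereas Nqo1 (-0.11) and the gene of NRF2 itself, Nfe2l2 (1.29), lay within 4-fold. Mdm2, the p53 inhibitor, was the 1 gene lower, with a log2 ratio of -2.31 that rests on 1 pre-stimulation cell, replicate 4, and is at least 3.28 without it.

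Mir155hg, the primary transcript of miR-155, was among the genes that the study names as induced for a short time around onset. The count is of the host transcript at chr16:84703167-84715245, plus strand, and the libraries do not measure the mature miRNA, which is cut from it. It was at 0 CPM in each of the 5 pre-stimulation cells and 0 to 3020.3 CPM in the 11 cells at 30 min (median 19). It was read in 7 of 11 cells, 1 cell of the first date held 64.5% of the reads, and the log2 ratio was at least 8.34 for cells of the first date and 2.47 for those of the second. The mature guide strand is shown because its seed (bases 2 to 8, in capitals) is what selects targets, with its position in GRCm38.p6 from RefSeq.
miR-155-5p, chr16:84714143-84714165, plus strand: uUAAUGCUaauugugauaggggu

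Of the 15 genes in that list, 14 could be matched to the count tables and 13 were measured. At least 4-fold higher were 12, none was lower, and the median log2 ratio was 5.91. The study chose the list on cells of this series, these included, so the count is not independent evidence of its direction. Bcl2l1, which encodes the survival protein BCL-XL, was at 0 CPM in each of the 5 pre-stimulation cells and 0 to 434 CPM in the 11 cells at 30 min (median 159.7), at least 43.5-fold higher. Cd274, the gene of PD-L1, had a log2 ratio of 3.14, with 0.04 for the first date and 3.74 for the second. Il17rb, the receptor chain for IL-25, was read in 4 cells, all of the second date, with up to 952 CPM. Klrg1, an inhibitory receptor that marks mature ILC2s, was the 1 within 4-fold: it ranged from 516 to 1287 CPM in the 5 pre-stimulation cells and was at 0 to 1445 CPM in the 11 cells at 30 min (median 669), with a log2 ratio of -0.21 (counting limits -0.33 and -0.09).

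Genes for receiving signals were mixed. Of 24 IL-33 and other alarmin receptor and signalling genes, 9 were measured, 4 higher, 1 lower and 4 within, with a median log2 ratio of 0.64. Il1rl1, the IL-33 receptor, was at 297, 456, 2968, 0 and 894 CPM in the 5 pre-stimulation cells and 17 to 3323 CPM in the 11 cells at 30 min (median 918), with a log2 ratio of 0.60 (counting limits 0.49 and 0.71) and 1.61 without pre-stimulation replicate 3. Il18rap, a chain of the IL-18 receptor, had a log2 ratio of 3.22, and Irak2, the inducible IRAK kinase, 2.54. Tab2, an adaptor of the kinase TAK1, was higher at 2.16, but -0.02 without replicate 11 at 30 min and 1.73 without pre-stimulation replicate 1. Without the latter Map3k8, a MAP kinase kinase kinase, moved from 0.64 to at least 4.22 and the list median to 1.73. Leaving out any 1 cell, that median ranged from 0.31 to 2.29 (the highest without pre-stimulation replicate 3), with 3 to 5 genes higher. Irak4, the kinase nearest to the receptor, was lower at -4.63, on 11 reads at 30 min and 98 before, but at -1.45 without pre-stimulation replicate 3, so it was not steady.

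Of 20 genes of the IL-2 receptor, JAK, STAT and SOCS list, 13 were measured, 4 higher, 1 lower and 8 within, with a median log2 ratio of 0.46. The median reached 1.503 without pre-stimulation replicate 3, and 3 to 5 genes were higher on leaving out any 1 cell. Il2ra, the high-affinity chain of the IL-2 receptor (CD25), was at 382, 0, 649.5, 895 and 185 CPM in the 5 pre-stimulation cells and 316 to 2185 CPM in the 11 cells at 30 min (median 925), with a log2 ratio of 1.31 (counting limits 1.16 and 1.47). The groups overlapped, and the other chains, Il2rb (-0.42) and the shared chain Il2rg (0.01), were near or below 0. Pim1 and Pim2, kinases that STAT factors induce and that favour survival, were higher: Pim1 with a log2 ratio of 4.70 (counting limits 4.04 and 5.46), and Pim2 at least 76.7-fold with no read before stimulation. Jak2 was higher at 4.30, with reads before stimulation in replicate 1 alone. Stat6, which IL-4 and IL-13 activate, was at 2.01, just past 4-fold, with reads before stimulation in 1 cell, and at 1.58 without pre-stimulation replicate 1, which left 3 genes of the list higher. Cish, a feedback inhibitor read in all 16 cells, lay within 4-fold, as did Socs1 (-1.31) and Socs2 (-0.35).

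The phosphatase genes that restrain lymphocyte signals, Ptpn22 (at least 54.6-fold higher, 7 cells) and Inpp5d, which encodes SHIP1 (at least 36.9-fold, 5 cells), had no read before stimulation; they were the 2 measured of 15 genes of MAP kinase phosphatases and related feedback. In the Bcl2 family, 4 of 16 genes were measured. Bcl2l1 was higher, and Bcl2 (0.19), Mcl1 (0.93) and the death-promoting Bcl2l11 (1.94) lay within. Without pre-stimulation replicate 1 Bcl2 was at 2.70, so that 2 of the 4 were higher, and the median of the list moved from 1.44 to 2.11. Leaving out any 1 cell, it ranged from 1.16 to 3.31, the highest without pre-stimulation replicate 4, where Bcl2l11 had 7.15.

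Surface genes divided. Of 26 costimulation, checkpoint and other surface genes, 25 could be matched and 11 were measured, 4 higher, 2 lower and 5 within, with a median log2 ratio of -0.25. Pdcd1lg2, the gene of PD-L2, a ligand of PD-1, was at 0 CPM in each of the 5 pre-stimulation cells and 0 to 1480.2 CPM in the 11 cells at 30 min (median 639). It was read in all but 1 of the cells at 30 min and was at least 182-fold higher. Cd44, the receptor for hyaluronan, was at 97.5, 0, 0, 0 and 0 CPM in the 5 pre-stimulation cells and 41.5 to 1729.9 CPM in the 11 cells at 30 min (median 549.6), with a log2 ratio of 4.79 (counting limits 4.21 and 5.44). Icam1, an adhesion ligand, was higher at 3.54 (first date 4.68, second date 1.75). Cd200r3, an activating receptor of the CD200 receptor family, was at 345, 326, 6.07, 1392 and 394 CPM in the 5 pre-stimulation cells and 0 to 6.53 CPM in the 11 cells at 30 min (median 0). Reads of it were left in 1 cell, and its log2 ratio was -9.32 as counted (counting limits -12.37 and -7.46) and -8.74 with the floor. Cd48, a ligand of SLAM family receptors, was lower at -3.18 (counting limits -3.56 and -2.82). Tnfrsf18, the gene of GITR (-0.38), and Icos (-1.06) lay within 4-fold.

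Genes of ILC2 identity gave counts that differed by list. Of the 16 ILC2 markers measured, 2 were higher, 1 lower and 13 within, beside 1789 of 2654 genes measured. Of 16 ILC2 lineage factors, 5 had no read in either group and 7 were measured, of which 2 were higher, 2 lower and 3 within, with a median log2 ratio of 0.17, of -0.25 with the pre-stimulation cells of both indexes and of 1.98 over the members at a mean of 10 CPM or more. The 2 higher and the 2 lower were each 28.6% of the 7 measured, beside 15.6% and 17% of all genes. The median log2 ratio of the markers was -0.14, close to that of all genes (-0.23). Gata3, the master regulator of ILC2s, was at 524, 2014, 1402, 427 and 718 CPM in the 5 pre-stimulation cells and 174 to 3611 CPM in the 11 cells at 30 min (median 985), with a log2 ratio of 0.30 (counting limits 0.19 and 0.40). Rora, the nuclear receptor needed for ILC2 development, was at 16.3, 77, 339.9, 0 and 69.5 CPM in the 5 pre-stimulation cells and 136 to 2772 CPM in the 11 cells at 30 min (median 1300.3). The groups overlapped, since the lowest cell at 30 min was below the highest before, and the log2 ratio was 3.71 (counting limits 3.41 and 4.04). Id2, which marks innate lymphoid cells, was at -0.82. Kit (0.08) and Ly6a, which encodes Sca-1 (-0.62), were the sorting markers of all cells. Hpgds, a prostaglandin D synthase of ILC2s, lay within at -0.07. Among other lineage factors, Ets1 was lower at -3.61 (counting limits -4.13 and -3.11) and steady, Bcl11b was lower at -3.91 on 1 pre-stimulation cell, replicate 4, and at least 1.12 without it, and Maf was higher at 3.66 on 3 cells, of which 1 held 87.5% of the reads, and at 0.82 without that cell.

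The genes lower at 30 min were steady in fewer cases than those higher (164 against 284). These counts are not on equal terms. Reads of a lower gene came mainly from 5 cells and those of a higher gene from 11, so leaving out 1 cell weighs more on the former. By the rule for named genes, the 12 falls with the largest ratios were Cd200r3, Tmem273, Tmco1, Pigyl, Gon4l, Pip4p2, Tmem123, Mkks, Arhgap9, Tecpr1, Wnk1 and Efcab14. Tmem273, a membrane protein, was at 106, 533, 832, 0 and 366 CPM in the 5 pre-stimulation cells and at 0 CPM in every cell at 30 min, at least 307-fold lower. Tmco1, a calcium leak channel of the endoplasmic reticulum, was at 398, 1641, 376, 0 and 4.63 CPM in the 5 pre-stimulation cells and 0 to 3.26 CPM in the 11 cells at 30 min (median 0). A single read was left at 30 min, and the log2 ratio was -10.25 as counted (counting limits -15.55 and -7.76) and -8.66 with the floor. Wnk1, a kinase that controls chloride transport, was at 73.1, 344, 795, 296 and 0 CPM in the 5 pre-stimulation cells and 0 to 42.5 CPM in the 11 cells at 30 min (median 0), with a log2 ratio of -6.16 (counting limits -7.23 and -5.25). Each of the 12 was read in at least 4 of the 5 pre-stimulation cells, and the 9 besides Tmem273, Tmco1 and Wnk1 had 97 to 461 reads before stimulation and 0 to 3 at 30 min. In none of the 12 did the values of the groups lie fully apart, as at least 1 pre-stimulation cell held 0 or few reads of each.

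Genes of DNA replication and mitosis were lower largely through 1 cell. Of 38 genes, 19 were measured, 15 at least 4-fold lower and none higher, with a median log2 ratio of -6.49. Of the 15, 5 were steady, beside 6.18% of all genes measured. Without pre-stimulation replicate 1 the counts were 5 lower and 4 higher, where over all genes 583 (22%) were higher and 465 (17.5%) lower, and the median was 1.11. Stmn1, which takes microtubules apart, was at 6115, 11.8, 0, 29.6 and 9.26 CPM in the 5 pre-stimulation cells and at 0 CPM in all cells at 30 min. Birc5, which encodes survivin, was at 1446, 0, 12.1, 11.9 and 4.63 CPM in the 5 pre-stimulation cells and likewise at 0 CPM at 30 min. Hmgb2, a chromatin protein of cycling cells, was at 10579.7, 11.8, 443, 17.8 and 27.8 CPM in the 5 pre-stimulation cells and 0 to 1382 CPM in the 11 cells at 30 min (median 315), and its log2 ratio was -2.56 with that cell and 2.01 without it. Mcm6 and Mcm7, parts of the replicative helicase, were each read in 3 pre-stimulation cells: Mcm6 was at 215, 0, 231, 0 and 449 CPM in the 5 pre-stimulation cells and 0 to 53.5 CPM in the 11 cells at 30 min (median 0), and Mcm7 was at 475, 0, 0, 5.93 and 144 CPM in the 5 pre-stimulation cells and at 0 CPM at 30 min. No cell at 30 min held more than 3762 CPM of the list.

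The same pre-stimulation cell held most reads of Cd3g, which was at 4034, 0, 552, 11.9 and 9.26 CPM in the 5 pre-stimulation cells and 0 to 927 CPM in the 11 cells at 30 min (median 0). Its log2 ratio was -2.65 with replicate 1 and 0.44 without it. Lat, an adaptor of T cell receptor signals, was lower at -2.69 and steady, and Trbc2, a constant region of the T cell receptor β chain, lay within at -0.42 with reads in 10 of 11 and 5 of 5 cells. Fcer1a, a mast cell and basophil marker, was at 0, 5.92, 0, 0 and 1338 CPM in the 5 pre-stimulation cells and at 0 CPM at 30 min, while the other 7 markers of those cells had no read in any cell. Of 12 stromal, fat and endothelial markers, 11 had no read in either group, and of 7 B cell markers Ighm alone had reads (-0.39). The part of such cells or reads in the results was not tested.

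Genes for making ribosomes were higher in part. Of 26 ribosome biogenesis genes, 15 were measured, 7 higher and 1 lower, with a median log2 ratio of 1.76. The median reached 2.78 without pre-stimulation replicate 3, and 6 to 9 genes were higher on leaving out any 1 cell. Nop58, a core protein of small nucleolar RNPs, was at 48.8, 0, 36.4, 5.93 and 120.4 CPM in the 5 pre-stimulation cells and 34.5 to 729.6 CPM in the 11 cells at 30 min (median 255), with a log2 ratio of 2.67 (counting limits 2.23 and 3.14). Ncl, which encodes nucleolin, was at 2.04 (1.70 without pre-stimulation replicate 1, which left 6 genes higher), Ddx21, a nucleolar helicase, at 3.06, Nolc1 at 4.50, and Dkc1 (at least 57.9-fold) and Wdr43 (at least 50.4-fold) had no read before stimulation. Polr1a, the large subunit of RNA polymerase I, was lower, with reads in 3 cells before stimulation and none at 30 min. Npm1 (0.12) lay within. The genes of the cytosolic ribosomal proteins themselves lay closer together: of 81 measured, none was higher or lower by 4-fold, the median log2 ratio was -0.41, and the sum was 202906 CPM before stimulation and 157608 CPM at 30 min. By cell the sum was 114884 to 185202 CPM at 30 min, and 100715, 278626, 227474, 249825 and 204790 CPM before stimulation, so the groups overlapped through replicate 1. The TMM shift of 0.25 is to be added to these ratios under that scaling.

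Chaperones of the cytosol had a median log2 ratio of 1.08 over 14 measured of 22 genes. Of these, 2 were higher (14.3%, beside 15.6% of all genes) and none lower (beside 17%). Without pre-stimulation replicate 1, 3 were higher, as Cct3 moved from 1.66 to 3.26. Cct5, a subunit of the chaperonin that folds actin and tubulin, was at 102, 207, 0, 0 and 0 CPM in the 5 pre-stimulation cells and 156 to 1317 CPM in the 11 cells at 30 min (median 449), with a log2 ratio of 3.14 (counting limits 2.77 and 3.54). Hsp90ab1 (1.97) came close to 4-fold, and Hspa9, a mitochondrial chaperone, was at least 44.3-fold higher. In the endoplasmic reticulum, where secreted cytokines are folded, 14 of 24 folding genes were measured, with a median of -1.06. Of these, 2 were higher (14.3%) and 3 lower (21.4%), near the 15.6% and 17% of all genes. Without pre-stimulation replicate 1, 3 were higher, as Canx, the chaperone calnexin, moved from 0.26 to at least 4.09. Herpud1, a part of the ER degradation machinery, was at 0, 5.92, 0, 0 and 111 CPM in the 5 pre-stimulation cells and 3.57 to 1214 CPM in the 11 cells at 30 min (median 485), with a log2 ratio of 4.39 (counting limits 3.82 and 5.02), and Calr, a calcium-binding chaperone, was at 2.16 and fell under 4-fold on leaving out any of several cells (lowest 1.85). Hsp90b1 (-4.38), Pdia6 (-2.97) and Dnajb11 (-3.04, and -1.87 without pre-stimulation replicate 3) were lower, and Hspa5, the chaperone BiP, lay within at 0.57. Of 17 measured genes of the ER translocation channel and signal peptide processing, 14 lay within 4-fold, with a median of -0.45; Srp72 (4.80) and Srpr (3.79), of the signal recognition particle and its receptor, were higher, as was Srp19 without pre-stimulation replicate 1 (2.22, against 0.50 with it).

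Of 19 glycolysis genes, 11 were measured, and 1 was higher (9.09%), 2 lower (18.2%) and 8 within, beside 15.6% higher and 17% lower of all genes. Their median log2 ratio was 0.13, and -0.72 for the second date. Aldoa was at 423, 427, 929, 207 and 1982 CPM in the 5 pre-stimulation cells and 816 to 2861 CPM in the 11 cells at 30 min (median 2165), with a ratio of 1.27, Ldha at 0.65 and Gapdh at -0.46, while Pfkp, a phosphofructokinase, was higher with a log2 ratio of 5.65 as counted (counting limits 3.78 and 8.70) and 5.06 with the floor on 2 reads before stimulation. The 2 hexokinase genes Hk1 (-2.14) and Hk2 (-2.28) were lower, each through 1 pre-stimulation cell. The direction turned to 3.07 for Hk1 without replicate 4 and to 2.15 for Hk2 without replicate 3. All 8 measured transcripts of the mitochondrial genome lay within 4-fold (median -0.33). Of 7 nuclear non-coding RNAs, 6 could be matched and 4 were measured; Kcnq1ot1 was lower at -2.62 through pre-stimulation replicate 3 (at least 2.20 without it), and Malat1, Neat1 and Gas5 lay within. Of 21 genes of quiescence and trafficking, 7 were measured, none higher and 1 lower (Txnip, -3.80, read in 1 cell at 30 min and 2 before), with a median of 0.94, and of -0.08 with the pre-stimulation cells of both indexes. The 1 lower was 14.3% of those measured, beside 17% of all genes.

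Among enzymes of lipid mediators and tryptophan, Odc1, the first enzyme of polyamine synthesis, was at 0 CPM in each of the 5 pre-stimulation cells and 0 to 1170.3 CPM in the 11 cells at 30 min (median 221), at least 125-fold higher. Tph1, which makes serotonin, had 1156 CPM over the cells at 30 min, but 1 cell of the second date held 13126 CPM and 99.7% of the reads, and leaving out that cell gave a log2 ratio of at least 0.07. Ptgir, the prostacyclin receptor, had a log2 ratio of 5.80 as counted (counting limits 3.94 and 8.86) and 5.22 with the floor on 2 reads before stimulation. With the pre-stimulation cells of both indexes it was at -0.13, and in the IL-5 index alone at -2.29, so its direction turned. Alox5 (-1.10) and Lta4h (-0.54), of leukotriene synthesis, lay within. Of the interferon list 3 of 22 genes were measured, 1 higher and 2 lower, with 1 of the lower genes steady. Irf5, a factor downstream of MyD88, was at least 122-fold higher with reads in 8 of 11 cells, and Irf9 (-4.98, read in 1 cell of each group) was lower but not steady, at 0.04 without pre-stimulation replicate 5.

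Genes named by the rule outside the lists were of several kinds. Ctnnb1, which encodes β-catenin, was at 4.06, 0, 0, 0 and 0 CPM in the 5 pre-stimulation cells and 40.8 to 2266 CPM in the 11 cells at 30 min (median 919). The groups did not overlap, and the log2 ratio was 9.68 as counted (counting limits 7.20 and 14.99) and 8.10 with the floor. Kdm1a, the histone demethylase LSD1, was at 0 CPM in each of the 5 pre-stimulation cells and 0 to 1236 CPM in the 11 cells at 30 min (median 449.7), at least 193-fold higher with reads in 9 of 11 cells. In absolute CPM, the largest gain was that of H3f3b, a gene of the replacement histone H3.3, which was at 2304, 581, 2058, 1404 and 3732 CPM in the 5 pre-stimulation cells and 1256 to 50742 CPM in the 11 cells at 30 min (median 18887). The lowest cell at 30 min was below the highest before, and the group was 10.4-fold higher. Further gains in CPM, besides Sqstm1, were those of Cd52, a surface glycopeptide of lymphocytes (18888 CPM at 30 min and 5336 CPM before stimulation), Malat1, a nuclear non-coding RNA (16504 CPM at 30 min and 7463 CPM before stimulation), Actb, β-actin (11748 CPM at 30 min and 4024 CPM before stimulation), and Fth1, the ferritin heavy chain (12029 CPM at 30 min and 6440.4 CPM before stimulation). The largest losses in CPM were those of B2m, the light chain of MHC class I (11715 CPM at 30 min and 19903 CPM before stimulation), Rpl32, Crip1 (log2 -1.42), Rps27, Rpl37 and Rpl41. Except for H3f3b and Sqstm1 all of these were within 4-fold, and CPM are shares of a total, so that a gain in one gene is a loss in others.

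Single cells also decided some genes that lay within 4-fold. Without pre-stimulation replicate 3, Cflar was at 2.53, Tnfaip8 at 2.73, Nfe2l2 at 2.18, Il2rb at 2.06 and Neat1 at 3.63. Nfkbid was at 4.28 without pre-stimulation replicate 4, Aldoa at 2.02 and Hsp90ab1 at 2.55 without replicate 5, and Cd52 at 2.20 without replicate 1. Lower past 4-fold were Socs1 (-4.65 without replicate 1 at 30 min), Socs2 (-3.03 without replicate 9) and Ighm (-2.43 without replicate 2). On leaving out any 1 cell, list medians ranged from -0.004 to 1.76 for nuclear non-coding RNAs (the highest without pre-stimulation replicate 3) and from 0.25 to 1.12 for quiescence and trafficking genes (the lowest without replicate 7 at 30 min). Counts of higher genes ranged from 8 to 10 in the IkB list, from 2 to 4 among chaperones and from 1 to 3 among ER folding genes, of which 2 to 4 were lower. By date, the first and then the second, medians were 7.46 and 6.12 for NF-kB subunits, 5.23 and 5.66 for the IkB list and -0.46 and -1.60 for ER folding genes.

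**Figure D4:**
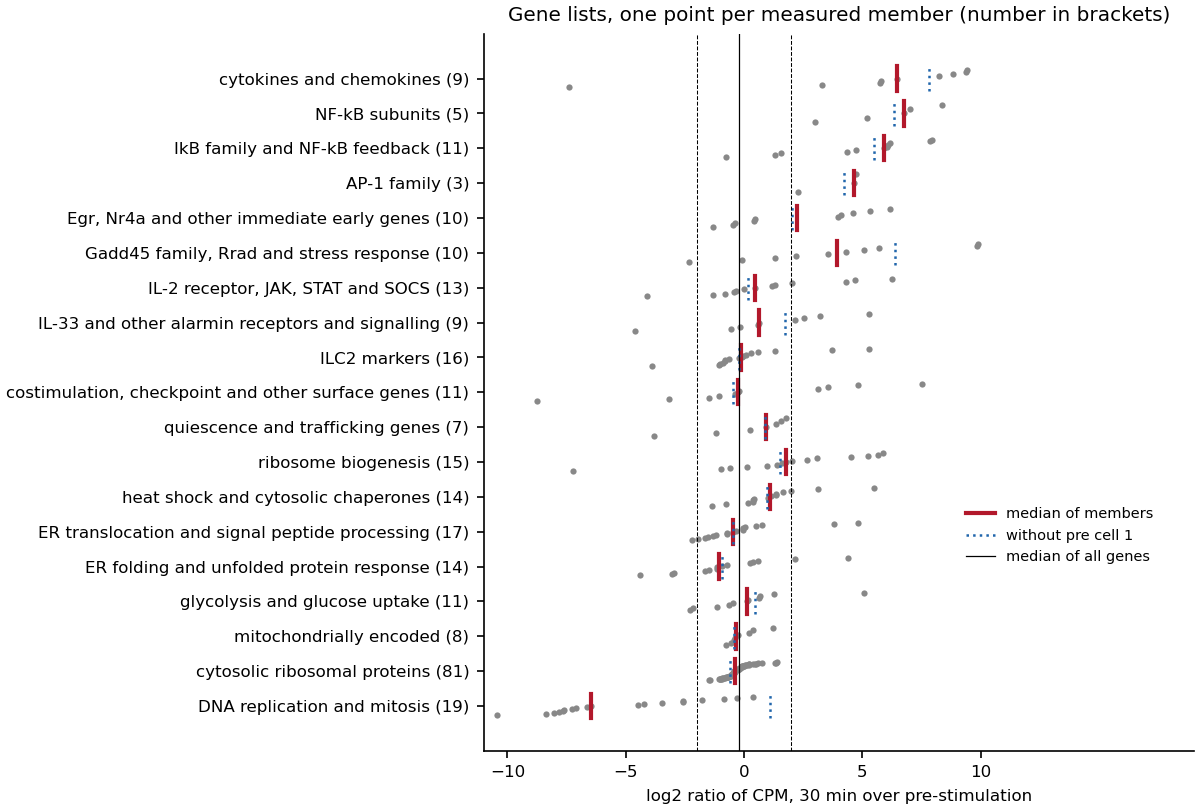
Log2 ratio of CPM (30 min over pre-stimulation) of each measured member of 19 gene lists, with the median of the members as a solid bar, the median without pre-stimulation replicate 1 as a dotted bar, the median of all genes (-0.23) as a solid line and 4-fold as dashed lines. The NF-kB, IkB, cytokine and AP-1 lists lie to the right of 4-fold in their medians, ribosomal protein and mitochondrial genes sit near the line of all genes, and the median of the replication and mitosis list moves from -6.49 to 1.11 without the 1 cell.

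The same comparison could be made in cells indexed by IL-5 secretion, with 10 cells at 30 min and 5 pre-stimulation cells that share no cell and no title date with the IL-13 index. Of 2837 genes measured there, 431 (15.2%) were at least 4-fold higher and 484 (17.1%) lower, and 306 (10.8%) and 185 (6.52%) of the 2837 were so and steady. Of 1952 genes measured in both indexes, 302 were higher when indexed by IL-13 and 296 when indexed by IL-5, and 107 were higher in both, which is 35.4% of the former and 36.1% of the latter. Of all 1952 genes, the share higher was 15.5% when indexed by IL-13 and 15.2% when indexed by IL-5. Lower in both were 49 genes, 26.9% of 182 and 25.5% of 192, beside 9.32% and 9.84% of all 1952. Among steady genes, 67 were higher in both (31.5% of 213 and 31.8% of 211) and 9 lower in both (14.1% of 64 and 10.1% of 89). Of all 1952 genes, 10.9% and 10.8% were steady higher and 3.28% and 4.56% steady lower in the IL-13 and IL-5 index. Across genes, which are not independent replicates, the log2 ratios had a Pearson r of 0.345. Past 4-fold in opposite directions were 23 genes higher in the IL-13 index and 21 higher in the IL-5 index. Whether the indexes differ in a gene was not tested.

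The leading genes were high in both. Ratios in the comparison of the indexes are all with the 3-read floor. Il13 had 1897 CPM at 30 min and 0 CPM before stimulation in the IL-5 index (log2 at least 9.58), Gadd45b 2978 CPM at 30 min and 0 CPM before stimulation (at least 10.23), Rrad 753 CPM at 30 min and 0 CPM before stimulation (at least 8.25) and Csf2 7081 CPM at 30 min and 28 CPM before stimulation (7.98). Il5, with 5.78 in the IL-13 index, had at least 10.86 in the IL-5 index, where no pre-stimulation cell held a read of it. The cytokine list had median log2 ratios of 6.46 (IL-13) and 7.02 (IL-5). Higher were 8 of 9 measured genes in the IL-13 index and 8 of 11 in the IL-5 index, and the members differed. NF-kB subunits had 6.77 and 2.67, where 3 of 4 measured were higher in the IL-5 index, and the IkB list had 5.91 and 2.60. Nfkb2 was at 7.02 and 2.43, Nfkbiz at 7.92 and 2.34, Traf1 at 7.84 and 2.76, and Rela at 5.20 and -0.20. For each of these the IL-13 index had 0 or 1 read before stimulation, whereas the IL-5 index had 85.8, 84.1, 106 and 81.7 CPM.

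Some values stood apart between the indexes. Il4 was at 167 CPM at 30 min in the IL-13 index with none before, and at 67.9 CPM at 30 min and 133 CPM before stimulation in the IL-5 index (log2 -0.97). Il2 was lower in the IL-13 index (-7.40) and had 37.4 CPM at 30 min and 4.95 CPM before stimulation in the IL-5 index. Ctnnb1 was at 8.10 and 0.51, Kdm1a at 7.59 and 1.68, Irak2 at 2.54 and -6.49, and Maf at 3.66 and -6.71. Of the 12 falls named by the rule, at whatever level in the IL-5 index, 5 were also past 4-fold lower there, 3 were past 4-fold higher and 4 within. Lower in both were Tmem273 (-8.26 and -7.60), Tecpr1, Pip4p2, Arhgap9 and Mkks. Opposite were Cd200r3, Wnk1 and Gon4l, none with a read before stimulation in the IL-5 index, where Cd200r3 was at 30.7 CPM at 30 min (at least 12.4-fold higher), and Wnk1 and Gon4l had log2 ratios of at least 4.27 and 2.75. Il9 had 5412 CPM at 30 min and 0 CPM before stimulation in the IL-5 index, against its 1 read in the IL-13 index. The replication and mitosis list, with 9 measured genes there, had a median of -0.22.

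**Figure D5:**
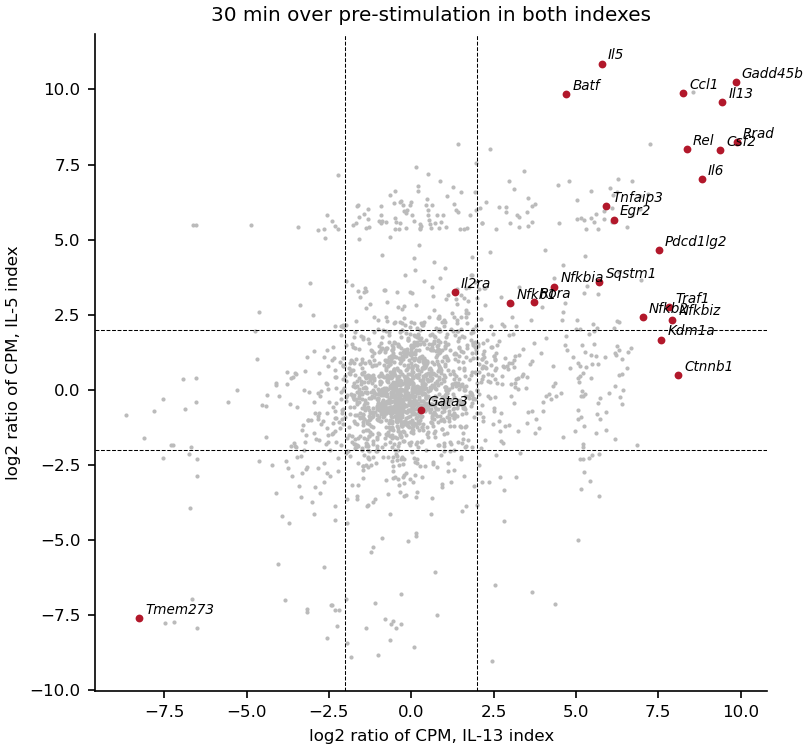
Log2 ratio of CPM (30 min over pre-stimulation) in the IL-13 index against that in the IL-5 index for the 1952 genes measured in both, with named genes in red and dashed lines at 4-fold. Gadd45b, Il13, Ccl1, Csf2, Rel and Rrad lie at the upper right, Ctnnb1 and Kdm1a are past 4-fold in the IL-13 index alone, and Tmem273 lies at the lower left.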

How the data were processed

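Single ILC2s were profiled by 3′ end sequencing (SMART-Seq v4 3′ DE), and 1 table of read counts per cell was deposited. Per the study's methods, the authors aligned read 1 to the mouse genome GRCm38 with TopHat and counted reads per Ensembl gene with HTSeq, whose versions and strand setting are not given in the sources used here. The processing notes name TopHat2, mm10 and GRCh38. The counts carry no normalization and no molecular identifiers. Of the alignments of the 16 cells, 60.1% were counted in genes, 8.43% fell in no feature, 1.71% were ambiguous and 29.8% were not unique; genes with near-identical copies can be undercounted, and overlapping genes cannot be told apart. The 5 summary entries of each table were left out of the totals, and 0 columns of values were left unused. The reads of 46078 gene identifiers were added up within a group and divided by the group total to give CPM.

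A gene was measured at a mean of 50 CPM or more, and called at a 4-fold ratio with a floor of 3 reads per group. Ratios with counting limits rest on the reads as counted. Counting intervals are exact (Clopper-Pearson for the split of reads between groups) at 95% and cover counting error only. Cells are not replicates, so no test between groups was made. The ratio and call steps were run on simulated counts with a gamma-distributed spread between cells. Ratios there were centred on the unchanged genes, which was not done for the data. The simulation was not made to cover genes whose reads came from 1 cell. Named genes were the members of 32 gene lists, the 12 rises and 12 falls with the largest ratio on leaving out the least favourable cell (50 CPM or more in the higher group, a read in 70% of its cells, 1 direction in the first date, in the mean of cells and without any 1 cell), and the 6 rises and 6 falls with the largest difference in CPM. The 6 further genes without overlap, and Tmem258, were named after their values were seen. The members and lists were chosen with earlier results of these data known. Alternatives were TMM (edgeR 4.0.16) and median-ratio (DESeq2 1.42.0) scaling factors, other CPM minimums, folds and a pseudocount, the mean of cells, each title date, pre-stimulation cells of both indexes and leaving out each cell. The steady calls, and the list counts without pre-stimulation replicate 1, were added after seeing the data. Values of some single genes are not reported here. Promoter windows and the miRNA were taken from RefSeq (GRCm38.p6) by gene symbol. The software was R 4.3.3 and Python 3.11.15 (pandas 2.3.3, numpy 2.4.6, matplotlib 3.10.9, scipy 1.17.1).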

Additional observations from a re-analysis of the deposited data

Results flagged for a closer look

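Dixon's gap rule for small groups, at its 95% level, was used as a flag and not as a test between groups. Its chance rate holds for normally distributed values and is not known for these sparse counts. In 5 gene lists, 1 pre-stimulation cell stood apart from the other 4 by this rule. These were the sum of replication and mitosis genes (38703 CPM in replicate 1), of cytokine genes (1777 CPM in replicate 2, from Il2 and Calca), of IL-33 receptor and signalling genes (4698 CPM in replicate 3), of MAP kinase phosphatase genes (468 CPM in replicate 4) and of mast cell markers (1338 CPM in replicate 5, from Fcer1a).

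Among genes named by the rule, Il13 (5.93 CPM), Csf2, Rel and Ctnnb1 (4.06 CPM each) and Nfkbiz and Ccl1 (4.63 CPM each) were singled out because 1 pre-stimulation cell held a single read and the other 4 none. Cd200r3 (1392 CPM), Tmco1 (1641 CPM) and Efcab14 (569 CPM) had 1 pre-stimulation cell far above the rest, and Crip1 had 1 far below the rest (2297 CPM).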

How the results depend on the processing

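No paired analysis was possible because no test between groups was made and replicate numbers only name cells. Of 245 genes followed through every setting, 122 were past 4-fold, 86 of them in the same direction under all settings, and 13 turned direction under at least 1. Il13, at 9.43 against the floor, was at 7.61 with a pseudocount of 10 CPM and at 9.00 to 9.55 on leaving out any 1 cell. The counts of genes higher and lower (413 and 452) were 1649 and 1322 at 10 CPM or more, 62 and 36 at 200 CPM or more, 2009 and 1827 with no minimum, 681 and 814 at 2-fold and 288 and 283 at 8-fold; 164 of the lower genes were steady. They were 470 and 402 with TMM or DESeq2 factors, 381 and 615 in the first date alone, 425 and 545 in the second, 307 and 364 with the pre-stimulation cells of both indexes, 439 and 453 with the mean of cells and 367 and 392 with a pseudocount of 10 CPM. Leaving out any 1 cell gave 407 to 583 higher and 422 to 481 lower.

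Leaving out any 1 cell, the median log2 ratio ranged from -6.85 to 1.11 for replication and mitosis genes (the latter without pre-stimulation replicate 1) and from -6.27 to 0.036 for interferon genes (the latter without replicate 5), which was 0.20 at 10 CPM or more. Ranges that turned were, without pre-stimulation replicate 1, Cd3g (-4.16 to 0.44), Hmgb2 (-2.93 to 2.01), Top2a (-7.84 to 1.84), Tuba1b (-2.96 to 1.11) and Tyms (-7.58 to 2.35); without replicate 3, Hk2 (-2.83 to 2.15) and Kcnq1ot1 (-6.45 to 2.20); without replicate 4, Bcl11b (-5.67 to 1.12), Hk1 (-3.37 to 3.07) and Mdm2 (-3.42 to 3.28); without replicate 5, Irf9 (-6.69 to 0.036); and without replicate 11 at 30 min, Tab2 (-0.016 to 4.88). Ptgir was at -0.13 with the pre-stimulation cells of both indexes. Without pre-stimulation replicate 1, list medians rose from 6.46 to 7.82 for cytokines (7.97 without replicate 2), from 3.92 to 6.38 for the stress response and from -0.07 to 1.19 for lipid mediator enzymes. Where the cell left out held nearly all reads of its group, the value is set by the floor; other causes were not tested. With 5 pre-stimulation cells, the 3-read floor set for a gene with no read in 1 group equals 1.12 CPM at 30 min and 3.11 CPM before stimulation.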

Other observations

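The series holds further states of the IL-13 index, each of 11 cells, whose levels over summed reads are given here as a description. Il13, at 2144 CPM at 30 min, was at 967 CPM at 60 min, 504 CPM at 90 min, 1231 CPM in activated cells and 4.16 CPM in silent cells. Gadd45b, at 2855 CPM at 30 min, was at 3492 CPM at 60 min, 3084 CPM at 90 min, 1391 CPM in activated cells and 359 CPM in silent cells. Of these states, the silent cells held the least of both. Rrad, at 2916 CPM at 30 min, was at 908 CPM at 60 min, 626 CPM at 90 min, 208 CPM in activated cells and 48 CPM in silent cells. Nfkbia, at 2994 CPM at 30 min, was at 3005 CPM at 60 min, 1543 CPM at 90 min, 1246 CPM in activated cells and 883 CPM in silent cells. Il9, with 1 read at 30 min, was at 236 CPM at 60 min, 43.8 CPM at 90 min, 44252 CPM in activated cells and 0.378 CPM in silent cells. No test between these states was made, since each is 1 sample.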
